A study of Mus musculus with 6 samples.

Results

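The regions described here are all peaks on mouse chromosome 12 (build mm10) in 4 lists of methylated DNA from I/11 cells, an erythroblast line that grew out of fetal liver of mice lacking p53 at day E12.5. The chromosome was chosen by the measured number of its peaks, which had been seen to be high for its length in these same lists. The rule takes every peak on it: 866 of 12963 peaks, or 641 of 10085 regions once peaks that overlap by at least 1 bp are merged across lists. Cells carried short hairpin RNA 133 or 14 against Plcg1 and were harvested after 24 h in differentiation medium (10 U/ml erythropoietin and 0.5 mg/ml holo-transferrin, 96 h after lentiviral infection) or at 0 h of differentiation (72 h after infection, in medium with 1 U/ml erythropoietin, 100 ng/ml SCF and 1 µM dexamethasone). All cells had gone through selection with puromycin and all lack p53. Libraries with a scrambled hairpin were made at both times, and their peak lists were not used here. Each group is 1 library of 1 line, so no difference below has a replicate check. Methylated fragments of about 150 bp were captured with MBD2-Fc, a methyl-CpG binding domain fused to an antibody tail, and those held until 1 M salt were sequenced.

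Plcg1 encodes phospholipase C gamma 1, which splits a membrane lipid into diacylglycerol, an activator of protein kinase C, and inositol trisphosphate, which releases calcium. In mammals methyl groups sit mainly on the cytosine of CpG dinucleotides, and most promoters rich in CpG are free of them. Capture with MBD2 favours fragments that are both methylated and dense in CpG. Mouse chromosome 12 carries the Nkx2-1 to Pax9 and the Six6 to Six4 groups of homeobox and paired-box genes, the imprinted Dlk1 to Dio3 interval and, near its distal end, the immunoglobulin heavy chain genes. The deposited lists give positions alone. No source used here says whether a listed peak has more or less methylated DNA than a control, so a peak below has no direction. The lists hold no read depth, and more copies of a stretch of chromosome cannot be told apart from more methylated DNA there. A cell type cannot be checked against marker transcripts in such lists.

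The following reference promoters are shown because a region met the promoter window in all 4 lists and reached the printed stretch (Actn1), with both hairpins at 24 h and neither at 0 h (Lrrc9 and Rin3), with both at 0 h and neither at 24 h (Six6, E2f6, Tmem229b and Fbln5), or at the start of a gene with a dense group of regions (Ltbp2 and Itgb8). Each is the 250 bases before the transcription start, 5′ to 3′ on the gene's strand, from RefSeq (GRCm38.p6, the assembly of mm10), with each CpG in capitals. CpG was counted over the window from 250 bases before to 50 bases after the start, and at least 1 CpG was found in 96.6% of the 1277 windows on the chromosome. The window of D430019H16Rik was also met in all 4 lists, but only after its start, so its stretch is not shown. These are reference sequences and show where methylation could lie, not where it was measured base by base.
Actn1 (chr12:80260364-80260613, minus strand): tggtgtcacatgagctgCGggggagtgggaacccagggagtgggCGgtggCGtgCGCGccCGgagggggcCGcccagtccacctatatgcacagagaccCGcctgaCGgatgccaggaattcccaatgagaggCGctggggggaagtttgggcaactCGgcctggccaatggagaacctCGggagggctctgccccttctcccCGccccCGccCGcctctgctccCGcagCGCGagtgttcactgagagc
Lrrc9 (chr12:72441616-72441865, plus strand): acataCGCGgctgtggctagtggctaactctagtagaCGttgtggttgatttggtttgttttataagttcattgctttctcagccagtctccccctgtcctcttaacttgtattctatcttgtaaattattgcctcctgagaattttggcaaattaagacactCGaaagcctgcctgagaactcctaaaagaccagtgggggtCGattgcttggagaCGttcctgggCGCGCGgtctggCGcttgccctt
Rin3 (chr12:102282824-102283073, plus strand): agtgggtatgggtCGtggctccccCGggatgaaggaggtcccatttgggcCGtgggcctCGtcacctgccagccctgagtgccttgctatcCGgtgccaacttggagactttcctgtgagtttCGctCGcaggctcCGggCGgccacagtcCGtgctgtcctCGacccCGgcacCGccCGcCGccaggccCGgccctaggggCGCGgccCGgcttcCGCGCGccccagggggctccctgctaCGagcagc
Six6 (chr12:72939632-72939881, plus strand): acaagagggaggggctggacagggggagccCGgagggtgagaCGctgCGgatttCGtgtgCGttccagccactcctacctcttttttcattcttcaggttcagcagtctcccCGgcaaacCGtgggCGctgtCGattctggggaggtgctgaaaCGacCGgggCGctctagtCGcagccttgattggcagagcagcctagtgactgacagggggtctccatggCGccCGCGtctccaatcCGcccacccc
E2f6 (chr12:16810715-16810964, plus strand): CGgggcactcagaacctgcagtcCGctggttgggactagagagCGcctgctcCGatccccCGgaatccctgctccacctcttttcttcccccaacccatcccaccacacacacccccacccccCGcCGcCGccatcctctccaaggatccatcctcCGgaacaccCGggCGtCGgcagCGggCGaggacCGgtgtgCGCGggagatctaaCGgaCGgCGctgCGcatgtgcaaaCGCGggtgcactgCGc
Tmem229b (chr12:79007278-79007527, minus strand): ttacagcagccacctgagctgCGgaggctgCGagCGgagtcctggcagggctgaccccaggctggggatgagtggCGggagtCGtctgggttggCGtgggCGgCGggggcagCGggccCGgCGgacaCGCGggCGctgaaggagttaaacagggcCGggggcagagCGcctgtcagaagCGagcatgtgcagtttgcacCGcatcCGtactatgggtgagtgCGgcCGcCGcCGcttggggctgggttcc
Fbln5 (chr12:101819120-101819369, minus strand): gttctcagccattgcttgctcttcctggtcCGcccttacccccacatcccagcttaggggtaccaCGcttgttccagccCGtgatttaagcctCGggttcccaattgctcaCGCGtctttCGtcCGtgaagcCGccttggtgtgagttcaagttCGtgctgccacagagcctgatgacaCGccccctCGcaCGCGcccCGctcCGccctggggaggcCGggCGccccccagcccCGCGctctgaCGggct
Ltbp2 (chr12:84876492-84876741, minus strand): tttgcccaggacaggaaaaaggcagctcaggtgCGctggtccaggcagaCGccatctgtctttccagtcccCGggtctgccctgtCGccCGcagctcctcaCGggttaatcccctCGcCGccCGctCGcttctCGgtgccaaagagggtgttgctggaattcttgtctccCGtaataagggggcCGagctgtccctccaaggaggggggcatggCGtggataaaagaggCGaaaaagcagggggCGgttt
Itgb8 (chr12:119238277-119238526, minus strand): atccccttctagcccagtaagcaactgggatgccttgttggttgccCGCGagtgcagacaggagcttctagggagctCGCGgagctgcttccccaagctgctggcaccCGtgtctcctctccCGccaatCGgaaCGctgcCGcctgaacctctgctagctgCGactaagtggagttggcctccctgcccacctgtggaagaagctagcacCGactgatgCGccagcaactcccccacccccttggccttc
Actn1 (alpha-actinin 1, which crosslinks actin) had 24 CpG in its window, and the region of all 4 lists reached 39 bases into the printed stretch. Among the promoters met at 24 h alone, Lrrc9, a leucine-rich repeat gene, had 13 CpG and Rin3, a guanine exchange factor for small GTPases of endocytosis, had 26. Among those met at 0 h alone, Six6, a homeobox gene of eye and pituitary, had 20, and E2f6, a repressor of the E2F family, had 29. Tmem229b, a transmembrane protein gene, had 31 and Fbln5, the gene of the elastic fibre protein fibulin 5, had 24. Ltbp2, of the latent TGF-beta binding protein family, had 20 and Itgb8, the integrin beta 8 gene, had 13. The promoters of the 2 times thus overlapped in CpG content.

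Another region of all 4 lists, chr12:112130366-112130527, lay 353 bp before the hairpin of Mir203, a microRNA known from skin. Its mature strands are shown because this was the nearest microRNA to any region of all 4 lists. They are from RefSeq, written with U, with the seed (bases 2 to 8) in capitals.
mmu-miR-203-5p: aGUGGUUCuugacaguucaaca
mmu-miR-203-3p: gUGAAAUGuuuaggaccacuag
Both strands lie on the plus strand, outside the region, so the peak itself does not cover them.

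Chromosome 12 had 210 peaks with hairpin 133 and 178 with hairpin 14 at 24 h, against 256 with hairpin 133 and 222 with hairpin 14 at 0 h. These were 7.09% and 6.68% of the lists at 24 h, and 6.56% and 6.46% at 0 h. With hairpin 133 at 24 h the density was 1.75 peaks per Mb, against 1.16 on the other autosomes, a ratio of 1.51. With hairpin 14 at 24 h it was 1.48 per Mb, against 1.05, a ratio of 1.42. With hairpin 133 at 0 h it was 2.13 per Mb, against 1.53, a ratio of 1.39, and for hairpin 14 at the same time it was 1.85, against 1.35, a ratio of 1.37. The chromosome ranked in place 2 among 19 autosomes in every list except that of hairpin 14 at 24 h, where it was in place 4. It is also poor in genes, with 679 protein-coding genes or 5.66 per Mb, against 8.54 on the other autosomes. Per protein-coding gene the ratios were therefore higher, 2.28 and 2.14 at 24 h and 2.10 and 2.07 at 0 h. Since the members were chosen by this excess it is given as a description, with no test. As a share of peaks on all autosomes, chromosome 12 held 7.18% at 24 h and 6.67% at 0 h with hairpin 133 (Fisher's exact test, adjusted p = 0.777), and 6.77% and 6.57% with hairpin 14 (Fisher's exact test, adjusted p = 0.839). A difference between the times was thus not shown. Such tests, here and below, treat peaks as independent although neighbouring ones are not. They are two-sided and compare lists of single libraries, not conditions, and p-values are adjusted over 10 tests.

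The peaks were unevenly spread, and the pattern was alike in the 4 lists, as the plot of peaks per 5 Mb bin shows. The first 50 Mb held 88 regions (13.7%) with 187 protein-coding genes (27.5%), predicted genes included. From 50 Mb to the end there were 553 regions (86.3%) with 492 genes. In peaks, the first 50 Mb had 20 with hairpin 133 and 22 with hairpin 14 at 24 h, against 37 and 34 at 0 h. The fullest 5 Mb bin, from 105 to 110 Mb, held 86 regions beside 34 genes, with 33 and 24 peaks at 24 h (hairpins 133 and 14) and 32 and 29 at 0 h. It spans Bcl11b, Eml1, Degs2 and the start of the Dlk1 to Dio3 interval. The bin from 70 to 75 Mb, with Rtn1, Six6 and Prkch, held 70 regions beside 38 genes. Those from 80 to 85, 110 to 115, 85 to 90 and 100 to 105 Mb held 58, 53, 50 and 47 regions beside 65, 63, 62 and 68 genes. The bin from 55 to 60 Mb, with Nkx2-1 and Pax9, held 40 regions, 5 of them in all 4 lists. Between these lay poor bins, with 8 regions and 7 genes from 60 to 65 Mb and 13 regions and 7 genes from 90 to 95 Mb.

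**Figure D1:**
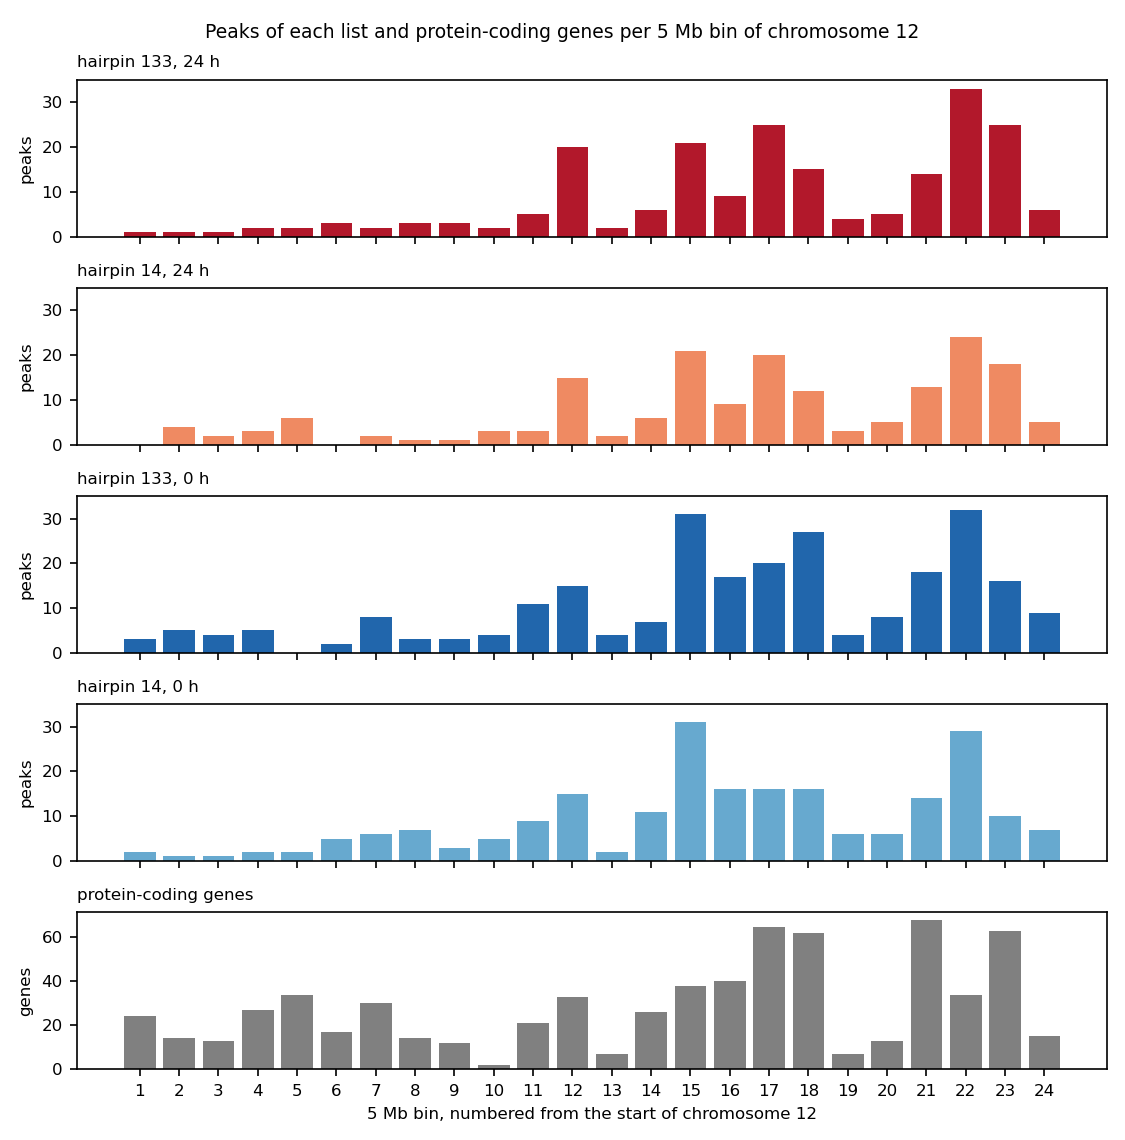
Peaks per 5 Mb bin of chromosome 12 in each of the 4 lists (upper panels) and protein-coding genes in the same bins (lowest panel), with bins numbered from the start of the chromosome. Few peaks lie in bins 1 to 10, which together hold 88 regions, and bin 22 (105 to 110 Mb) holds 33 and 24 peaks at 24 h and 32 and 29 at 0 h.

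Over the 24 whole bins of 5 Mb, regions and protein-coding genes correlated with r = 0.703 (Spearman's coefficient 0.717), and over 120 bins of 1 Mb with r = 0.531 (Spearman's coefficient 0.601). Peaks of any pair of lists correlated over the 5 Mb bins with r from 0.844 to 0.969. Bins are not replicates, share their libraries and differ in base composition, so these are descriptions. The scatter of regions against genes shows the bins that stand off the trend. The bin from 105 to 110 Mb had 2.53 regions per gene and that from 70 to 75 Mb 1.84, while that from 110 to 115 Mb had 0.841. At the other end, the bin from 20 to 25 Mb had 34 genes and 8 regions. Most of those 34 genes are predicted ones, so its low number of regions per gene rests largely on them. Compared with bins of the other autosomes, a larger share of the bins of chromosome 12 was full. This follows from the choice of a peak-rich chromosome, so the comparisons of bins below are descriptions. The median of the 5 Mb bins was 17 regions on chromosome 12 and 16 elsewhere. That 17 lies midway between bins of 13 and 21 regions, with none between, so it says little about the middle of the distribution. At the upper end, 7 of 24 bins (29.2%) were above 38.2 regions, a level that 10.0% of the other autosomes' bins exceeded. The median 1 Mb bin held 3 regions in both, and 22 of 120 bins (18.3%) held more than 10, against 7.42% elsewhere. No region was found in 16 of the 1 Mb bins (13.3%), against 17.98% elsewhere.

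**Figure D2:**
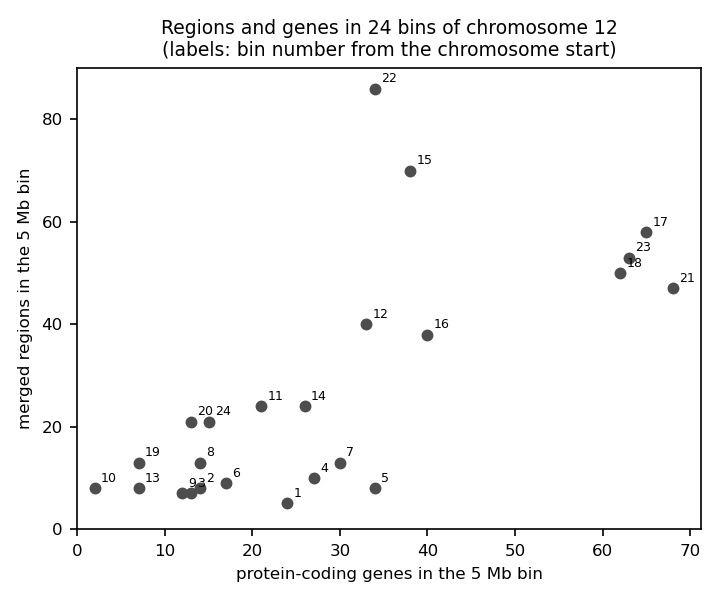
Merged regions (vertical axis) against protein-coding genes (horizontal axis) in the 24 whole 5 Mb bins of chromosome 12, each point 1 bin labelled by its number from the chromosome start. Bins 22 and 15, with 86 and 70 regions, lie above bins of similar gene number, and bins 17, 18, 21 and 23 have 62 to 68 genes with 47 to 58 regions.

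At 1 Mb, the fullest bin was that from 73 to 74 Mb, with 22 regions and 10 genes, Prkch among them. Its lists had 10 and 7 peaks at 24 h (hairpins 133 and 14) and 10 and 10 at 0 h. Bins from 106 to 107 and from 107 to 108 Mb held 20 and 19 regions with 2 genes each. The bin from 56 to 57 Mb, with the Nkx2-1 to Pax9 group, held 17 regions beside 5 genes, and 4 of its regions were in all 4 lists.

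In some stretches both lists of 1 time held more peaks than both of the other. The whole 0 h lists are longer, with 3900 and 3437 peaks (hairpins 133 and 14) against 2960 and 2666 at 24 h. From 110 to 115 Mb there were 25 peaks with hairpin 133 and 18 with hairpin 14 at 24 h, against 16 and 10 at 0 h, although the chromosome as a whole had fewer peaks at 24 h. It was the only 1 of 24 bins of 5 Mb where both lists of 24 h lay above both of 0 h (4.17%), and over all autosomes 6.02% of such bins did. In 10 of 24 bins (41.7%) both lists of 24 h lay below both of 0 h, against 33.3% over all autosomes. These include the bin from 70 to 75 Mb (21 and 21 peaks at 24 h, 31 and 31 at 0 h) and that from 85 to 90 Mb (15 and 12 at 24 h, 27 and 16 at 0 h). At 1 Mb, 5 of 104 bins with a peak (4.81%) were higher at 24 h, against 5.83% over all autosomes, and 24 (23.1%) were lower, against 19.2%. The shares of bins that were higher are near the background, so they do not set the chromosome apart. The shares that were lower are somewhat above it, and whether this exceeds counting error was not tested. Among the 5 bins of 1 Mb that were higher, that from 112 to 113 Mb had 9 and 7 peaks at 24 h and 2 and 2 at 0 h. That from 84 to 85 Mb, where Ltbp2 lies, had 10 and 8 at 24 h and 3 and 4 at 0 h. The bin from 71 to 72 Mb had 1 and 2 at 24 h and 6 and 6 at 0 h, and that from 75 to 76 Mb, with Rhoj, 2 and 4 at 24 h and 8 and 8 at 0 h.

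Most regions belonged to 1 list. Of the 641, 479 (74.7%) were in a single list, 121 in 2, 19 in 3 and 22 in all 4 (3.43%, exact binomial 95% interval 2.16 to 5.15%, counting error only). On the other autosomes 2.32% of regions were in all 4 lists. In 2 or more lists were 25.3% (21.95 to 28.8%) on chromosome 12 and 20.6% elsewhere. Among regions of exactly 2 lists, 26 were those of both hairpins at 24 h and 62 those of both hairpins at 0 h. The other 33 came from a pair of lists that mixed the times. Of the 53 peaks of hairpin 133 at 24 h that hairpin 14 shared, 52 had the same start and end to the base, and of 98 shared at 0 h, 94 did. Between the times, 41 peaks of hairpin 133 at 24 h were found at 0 h, and 1 had the same coordinates. With hairpin 14 these were 40 and 3. Whether lists of a time were called with something in common, such as a control library, was not tested.

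**Figure D3:**
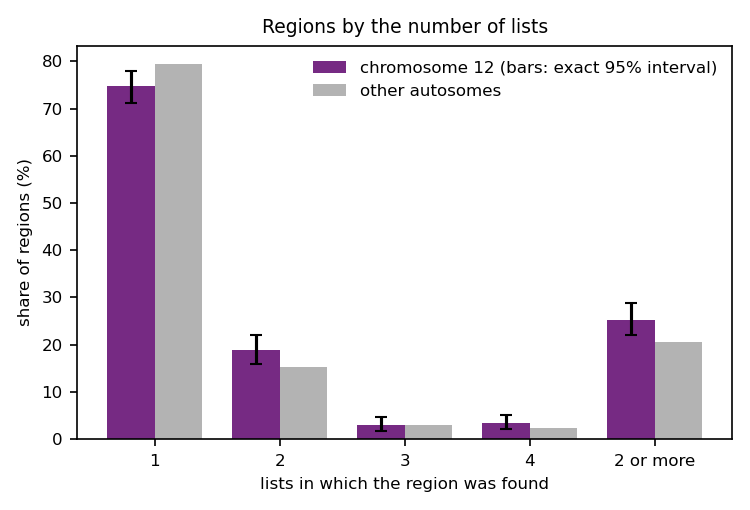
Share of regions found in 1, 2, 3, 4, and 2 or more of the 4 lists on chromosome 12 (left bar of each pair, with exact binomial 95% intervals) and on the other autosomes (right bar). On chromosome 12, 25.3% of regions were in 2 or more lists, and elsewhere 20.6%.

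At 0 h, peaks of chromosome 12 were found with the other hairpin more often than peaks elsewhere, 98 of 256 (38.3%) against 30.6% with hairpin 133 and 98 of 222 (44.1%) against 34.7% with hairpin 14. A shared peak adds to the count of both lists, and the chromosome was chosen by its number of peaks in these lists. The comparison is therefore not fully independent of that choice. The differences were 7.68 and 9.44 percentage points (Fisher's exact test, adjusted p = 0.0295 for both), and both rest on the same 98 overlaps. With peaks of identical coordinates left out they turned to -6.19 and -7.12 points (Fisher's exact test, adjusted p = 0.0247 and 0.0295). This setting removes peaks that are shared by definition and leaves 4 shared ones at 0 h, so it does not test the excess. Of the shared peaks at 0 h, 94 of 98 (95.9%) had identical coordinates on chromosome 12 and 860 of 1096 (78.5%) elsewhere. At 24 h the shares were 53 of 210 (25.2%), against 25.3% elsewhere, with hairpin 133 and 53 of 178 (29.8%), against 28.1%, with hairpin 14 (Fisher's exact test, adjusted p = 1 and 0.777).

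Around genes, 60 of the 641 regions (9.36%) had their centre at most 1 kb from the end of some protein-coding gene, against 13.4% of regions elsewhere, and 308 (48.0%) lay elsewhere in a gene body, against 49.1%. Farther than 10 kb from protein-coding genes and outside any other gene were 185 (28.9%), against 21.6%. The chromosome has 5.66 protein-coding genes per Mb, against 8.54 elsewhere, and no share or test in this paragraph was adjusted for this. At 24 h, the share of peaks at gene ends was below that of the other autosomes: 12.4% against 19.9% with hairpin 133 and 13.5% against 21.6% with hairpin 14 (Fisher's exact test, adjusted p = 0.0295 for both). With a distance of 2 kb the differences did not pass (Fisher's exact test, adjusted p = 0.0775 and 0.0956). At 0 h the shares were 14.8% against 13.7% with hairpin 133 and 13.1% against 14.6% with hairpin 14 (Fisher's exact test, adjusted p = 0.777 for both). Regions of several lists were more often near gene ends. Within 1 kb lay 11 of the 22 of all 4 lists, 3 of 19 of 3 lists (15.8%) and 18 of 121 of 2 lists (14.9%). Of a single list, 28 of 479 did (5.85%). Regions of the other autosomes were not split by number of lists, so whether this is particular to chromosome 12 was not tested.

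A peak lay in the body or within 10 kb of 130 of 679 protein-coding genes (19.1%) with hairpin 133 at 24 h, where 10.5% of all protein-coding genes had one, and of 117 (17.2%) with hairpin 14 at 24 h, where 9.69% did. At 0 h there were 136 (20.03%) with hairpin 133, against 12.7% of all genes, and 120 (17.7%) with hairpin 14, against 11%. Any list touched 264 (38.9%), against 25.9%, and a region of all 4 lists touched 22 (3.24%), against 1.28%. These counts follow from the choice of a peak-rich chromosome and are not read further. Genes of chromosome 12 were also longer, with a median of 25.1 kb against 17.3 kb elsewhere.

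Among the 22 regions of all 4 lists, several lay in or beside homeobox and paired-box genes. In the Nkx2-1 to Pax9 group there were 4, at chr12:56521079-56521231 and chr12:56529045-56529210 beside Nkx2-1, a factor of thyroid, lung and forebrain, at chr12:56611847-56612004 in Nkx2-9 and at chr12:56691457-56691614 beside Pax9, a factor of pharyngeal pouches and teeth. Nkx2-1 had 1 and 2 peaks within 10 kb at 24 h (hairpins 133 and 14) and 1 and 2 at 0 h. Nkx2-9 had 2 and 2 at 24 h and 1 and 1 at 0 h, and its second region, chr12:56612912-56613062, was that of both hairpins at 24 h. Six6 had 0 and 0 at 24 h and 2 and 2 at 0 h, and Six4 had 0 and 0 at 24 h and 2 and 1 at 0 h. In both genes the lists of 24 h lay below those of 0 h, as they did in 34 of the 264 genes of the chromosome with a peak (12.9%) and in 10% of all protein-coding genes with a peak. The 0 h lists are the longer ones. Both lists of 24 h lay above those of 0 h in 18 (6.82%), against 5.7% of all.

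Others lay by genes of varied function. Lamb1 (laminin beta 1), Nrcam (a neuronal adhesion molecule), Actn1 and Syne2 (nesprin 2, of the nuclear envelope) each had 1 region of all 4 lists. Evl, an actin regulator of the Ena/VASP family, and Degs2, a sphingolipid enzyme gene, are neighbours and had 1 in common. Kcnh5, a voltage-gated potassium channel gene, had 1 at chr12:75176453-75176610. Clec14a, an endothelial lectin gene, Dio2, the deiodinase that activates thyroid hormone, Cipc, a regulator of the circadian clock, and D430019H16Rik had exactly 1 peak in each list, and it was the shared one. Abhd12b, Aspg, and the neighbours Pacs2 and Tex22 had 1 within 10 kb. Of the regions of all lists, 2 were far from protein-coding genes, 11.1 kb from Gpatch2l and 58.7 kb from Gsc, the homeobox gene goosecoid.

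Prkch held the most regions of any gene on the chromosome. It encodes protein kinase C eta, an isoform that diacylglycerol activates, and spans 193 kb. Within 10 kb it had 5 peaks with hairpin 133 and 2 with hairpin 14 at 24 h, against 6 and 5 at 0 h. The region of all 4 lists, chr12:73578485-73578641, lay outside the body. Inside the body there were 7 regions, of which 3 were those of both hairpins at 0 h (starting at 73630569, 73687036 and 73702472), 3 were of hairpin 133 at 24 h alone and 1 was of hairpin 14 at both times. No region inside the body was that of both hairpins at 24 h. A predicted gene overlaps its start, so peaks there cannot be given to 1 gene.

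Other long genes had 4 to 6 regions in the body, with lists that differed from gene to gene. Rhoj, a small GTPase gene known from endothelium, had 0 and 0 peaks at 24 h (hairpins 133 and 14) and 4 and 3 at 0 h. Rtn1, a reticulon of the endoplasmic reticulum, had 0 and 3 at 24 h and 4 and 3 at 0 h, and Sipa1l1, a Rap GTPase activating protein of synapses, had 2 and 0 at 24 h and 4 and 3 at 0 h. In Rhoj and Sipa1l1 both lists of 24 h lay below both of 0 h, the order of 10% of all genes with a peak, and in Rtn1 they did not. Rgs6, a regulator of G protein signalling, had the opposite order, with 3 and 2 at 24 h and 1 and 0 at 0 h. Eml1, a microtubule binding protein gene, had 2 and 2 at 24 h and 2 and 1 at 0 h. Syne2 had 2 and 2 at 24 h and 2 and 4 at 0 h. Trim9, Akap6, Ttc7b, Slc25a21 and Foxn3 had 4 or 5 regions and peaks in 3 or 4 lists each.

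**Figure D4:**
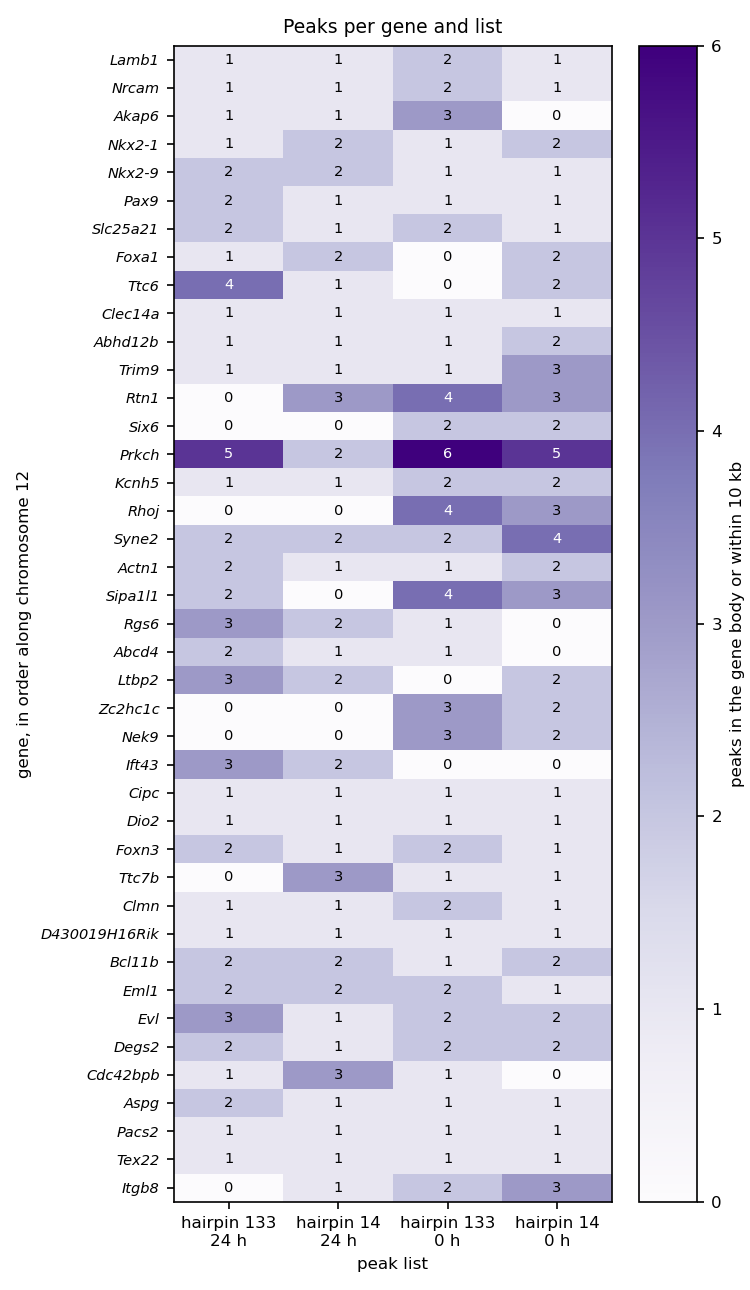
Peaks in the body or within 10 kb of each gene (rows, in order along the chromosome) in the 4 lists (columns), for genes with a region of all 4 lists, with the most regions in the body, in a cluster, or with the most regions of both hairpins at 1 time, as far as they are reported here. Prkch has 5, 2, 6 and 5 peaks, Ift43 has 3, 2, 0 and 0, and Rhoj has 0, 0, 4 and 3.

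Genes with the most regions of both hairpins at 24 h and neither list of 0 h were Ltbp2 and Ift43, an intraflagellar transport gene, with 2 each. Ltbp2 had 3 and 2 peaks within 10 kb at 24 h and 0 and 2 at 0 h. At its start, chr12:84875955-84876105 and chr12:84876584-84876734 were listed with both hairpins at 24 h, and chr12:84876354-84876504, which lies between them and meets neither, with hairpin 14 at 0 h. Ift43 had 3 and 2 at 24 h and 0 and 0 at 0 h, and 1 of its regions, chr12:86078801-86078951, lies in the neighbouring Tgfb3, the gene of transforming growth factor beta 3, a gene named after its values were seen. Rgs6, Abcd4 (a lysosomal transporter of vitamin B12) and Cdc42bpb (a kinase bound by Cdc42) had 1. Regions of both hairpins at 0 h alone were most numerous in Prkch with 3, then in Rtn1, Sipa1l1, Nek9 (a kinase of mitosis) and Zc2hc1c with 2 each. Nek9 and its neighbour Zc2hc1c count the same regions, with 0 and 0 peaks at 24 h and 3 and 2 at 0 h.

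Neighbouring regions were 68.3 kb apart in the median, against 98.8 kb elsewhere, and 78 gaps (12.2%) were at most 10 kb, against 11.9%. The shorter median gap follows from the choice of a peak-rich chromosome and is not read further. Chains of at least 3 regions with gaps of at most 10 kb numbered 14 and held 44 regions (6.86%, against 6.03% elsewhere). The widest gap, 3132 kb, ended at 16810649, beside the E2f6 promoter. Each of 2 chains held 4 regions, at chr12:56521079-56535304 by Nkx2-1 and at chr12:107927052-107934923 in Bcl11b, a T cell factor. The Nkx2-1 chain had 2 and 3 peaks at 24 h (hairpins 133 and 14) and 2 and 3 at 0 h. The Bcl11b chain had 1 and 2 at 24 h and 0 and 1 at 0 h. Chains in Six6 (chr12:72939597-72941807) and Rhoj (chr12:75346132-75362754) were of 0 h alone, with both hairpins. A chain in Foxn3, a forkhead gene, was of hairpin 133 alone, with 2 peaks at 24 h and 1 at 0 h. The chain at the start of Ltbp2 had 2 and 2 peaks at 24 h and 0 and 1 at 0 h in 0.78 kb, and that before Itgb8 had 0 and 1 at 24 h and 2 and 3 at 0 h in 0.544 kb. Others lay beside Foxa1, an endoderm factor whose neighbour Ttc6 shares it, in Rtn1, at the start of Prkch, in Clmn and at Degs2 and Evl. Another, chr12:107171574-107181601, lay 59.5 kb from the nearest protein-coding gene and had 3 and 1 peaks at 24 h and 1 and 0 at 0 h.

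Between Dlk1 and Dio3 (chr12:109452485-110281097), where paternally and maternally expressed genes and 58 microRNA hairpins lie, there were 17 regions, or 20.5 per Mb against 5.34 over the chromosome. Nearby 1 Mb bins outside it were about as full, with 20, 19 and 18 regions from 106 to 107, 107 to 108 and 108 to 109 Mb. The density was thus not particular to the interval. There were 8 and 3 peaks at 24 h (hairpins 133 and 14), against 4 and 6 at 0 h. None of these 17 regions was in all 4 lists, and 14 of them were in a single list. The one in 3 lists, chr12:109599410-109599560, lay in Rtl1, an imprinted gene of retrotransposon origin, and was missing with hairpin 133 at 24 h. The window of Meg3, the maternally expressed long RNA, was met by a peak of hairpin 133 at 0 h. Hairpins overlapped by a peak were those of Mir770 (hairpin 14 at 0 h) and of Mir412 and Mir369 (hairpin 14 at 24 h). In contrast, the immunoglobulin heavy chain segments, which span 2.75 Mb, held 3 regions or 1.09 per Mb, with 0 and 0 peaks at 24 h and 3 and 1 at 0 h.

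Of 34 genes of development, mostly transcription factors, 23 had a peak within 10 kb in some list (67.6%, beside 38.9% of the genes of chromosome 12 and 25.9% of all protein-coding genes), 11 and 14 at 24 h (hairpins 133 and 14) and 16 and 15 at 0 h. These lists of genes were chosen with earlier results known and were not matched on gene length or CpG, so the counts are descriptions. Besides those above, Npas3 had 0 and 1 peaks at 24 h and 1 and 3 at 0 h, and Foxa1 had 1 and 2 at 24 h and 0 and 2 at 0 h. Ahr, Six6 and Six4 had peaks with both hairpins at 0 h and 0 at 24 h. Of 16 synapse and neuronal adhesion genes 12 had a peak (75%, beside the same 38.9% and 25.9%), with 8 and 9 at 24 h and 10 and 6 at 0 h. These genes are long, from 34.4 kb (Lrrn3) to 1612 kb (Nrxn3), against a median of 25.1 kb on the chromosome. Nrcam, Trim9, Kcnh5 and Ston2 had a peak in all 4 lists. Of 26 genes of red cells and blood formation 12 had a peak (46.2%, near the chromosome's share), with 8 and 3 at 24 h and 6 and 4 at 0 h. Only Prkch and Bcl11b had one in every list, and Jdp2, an AP-1 repressor, in 3. Hif1a, Max, Fos and Egln3 had 0 in each list. Sptb, the spectrin beta gene of the red cell membrane, had 1 peak within 10 kb, with hairpin 133 at 0 h. That peak lay outside the body of Sptb, which held 0 regions.

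Of 14 genes for calcium signalling and for kinases and enzymes around phospholipase C, 8 had a peak (57.1%, beside 38.9% of the chromosome's genes in any list and 17.2 to 20.03% in 1 list), with 4 and 4 at 24 h and 5 and 4 at 0 h. Slc8a3, a sodium and calcium exchanger, and Itpk1, an inositol phosphate kinase, each had 0 and 1 at 24 h and 1 and 1 at 0 h. Itsn2, an endocytic scaffold, had 0 and 0 at 24 h and 1 and 1 at 0 h. Akt1 had 0 in every list. Of 10 genes of DNA repair and methylation 7 had a peak (70%, beside the same 38.9%), with 4 and 2 at 24 h and 3 and 2 at 0 h. Dnmt3a, a DNA methyltransferase, had 1 peak, with hairpin 133 at 24 h, and Tdrd9 had 1 and 1 at 24 h and 0 and 0 at 0 h. Of 18 serpin genes 4 had a peak (22.2%, beside 38.9% of the chromosome's genes and 25.9% of all protein-coding genes): Serpina11, Serpina9, Serpina12 and Serpina3g. The interval from Serpina10 to Serpina3n, with 23 protein-coding genes, held 6 regions, or 7.52 per Mb against 5.34 over the chromosome. The serpin genes are thus not shown to be poor in peaks.

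Peaks met 27 of 1277 promoter windows (2.11%), where 1.48% of all windows were met. Of the 679 protein-coding genes, 588 had a window. The 27 had a median of 15 CpG (5 to 35), against 7 in the 1250 windows not met, and a GC share of 61%, against 52.7%. On the other autosomes windows that were met had 17 in the median. No window with fewer than 5 CpG was met, while 36.7% of the windows not met had so few. At the rich end, 3 of the 27 (11.1%) and 14.6% of those not met had at least 30. The plot of CpG by window shows that 13 of the 27 windows met had 5 to 14 CpG. Since the assay selects DNA dense in CpG, how much of this comes from capture was not tested. By list, 11 and 12 windows were met at 24 h (hairpins 133 and 14), against 15 and 13 at 0 h. The lists of chromosome 12 held 210 and 178 peaks at 24 h and 256 and 222 at 0 h, so these counts show no preference for a time. On the other autosomes the order was the opposite, with 211 and 190 windows at 24 h and 171 and 159 at 0 h.

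**Figure D5:**
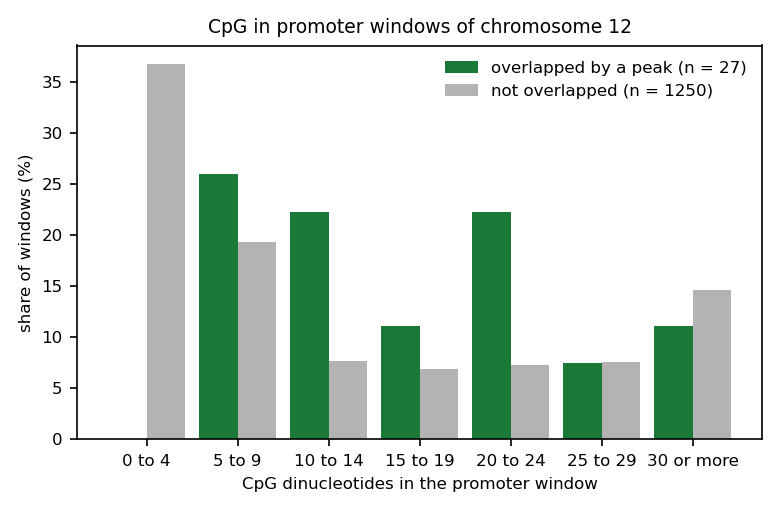
Share of promoter windows of chromosome 12 (vertical axis, %) by their number of CpG dinucleotides (horizontal axis), for the 27 windows overlapped by a peak (left bar of each pair) and the 1250 not overlapped (right bar). None of the overlapped windows has 0 to 4 CpG, where 36.7% of the others lie.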

How the data were processed

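The members and the gene lists were chosen with earlier results of these data known. The authors deposited 1 list of peak positions for each library, without scores or strand. The build was mm10 and the tools named in the submitters' processing notes are HOMER, BWA, SAMtools and Picard. Versions, thresholds and the control of peak calling are not given in the sources used here. Starts were read as 0-based and are printed 1-based. Every peak on chromosome 12 is 151 bp wide, and all were used.

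Peaks of the 4 lists were merged into regions by an overlap of at least 1 bp (Python 3.11.15, pandas 2.3.3, NumPy 2.4.6). Bins and distances to genes used the centre of a peak or region. Genes came from RefSeq (GRCm38.p6), and the length of a chromosome was the span that its genes and peaks reach. A gene had a peak when one lay in its body or within 10 kb. Overlapping and neighbouring genes share peaks. Named genes are those with a region of all 4 lists, the 15 with the most regions in the body, those of clusters, list members with peaks in at least 2 lists, and the 5 with the most regions of both hairpins at 1 time for each time. Others are named as list members or after their values were seen. Predicted genes were not named but were included in counts of protein-coding genes. A few genes are left out of this text.

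Shares were compared by Fisher's exact test in SciPy 1.17.1 (threshold 0.05 after Benjamini-Hochberg adjustment of 10 p-values), and the steps were tested on simulated data. Exact binomial 95% intervals cover counting error only. Read depth is unknown. Alternatives were another overlap rule, identical coordinates left out or required, other distances and gaps, shifted bins, the fullest bin or chromosome 10 left out, and each list left out in turn. Counts over bins by time, and CpG classes of promoters, were added after the results had been seen.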

Additional observations from a re-analysis of the deposited data

How the results depend on the processing

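Of the alternatives, 18 tested values kept their direction and their side of the threshold, and 21 values without a test moved little enough to count as unmoved. With peaks of identical coordinates left out, the difference in the share found with the other hairpin turned to -2.06 points with hairpin 14 at 24 h and to -6.19 and -7.12 points with hairpins 133 and 14 at 0 h, and no region was left in all 4 lists (0). With identical coordinates required, 1 region was in all 4. Both settings remove or keep most peaks shared within a time by their construction. Without chromosome 10 among the other autosomes, the difference with hairpin 133 at 24 h was 1.02 points. At gene ends, a distance of 2 kb gave -6.84 and -7.44 points at 24 h (hairpins 133 and 14), no longer past the threshold, and with hairpin 133 at 0 h distances of 0.5 and 2 kb gave -0.0606 and -0.122 points. Causes other than the construction of a setting were not tested. Per protein-coding gene, the ratios to the other autosomes were 2.28, 2.14, 2.10 and 2.07 (hairpins 133 and 14 at 24 h, then at 0 h). Per Mb without the fullest 5 Mb bin they were 1.33, 1.28, 1.27 and 1.24. Gaps of at most 5 kb gave 7 clusters and of at most 50 kb gave 66, and a window of 50 kb gave 423 genes with a peak. Leaving out each list in turn gave 24 to 31 regions in all lists kept and 506 to 541 regions in all. Read depth, copy number and the direction of a peak limit every value, and no list has a replicate.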
